A study of Homo sapiens with 6 samples.

Results

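Long noncoding RNA (lncRNA) genes were examined in RNA-seq of K562, a Bcr-Abl-positive human chronic myeloid leukemia cell line of erythroid and myeloid character. Each gene of the deposited expression table was matched by its NCBI gene number to the RefSeq record, genes typed lncRNA were kept, and symbols beginning with SNHG as well as GAS5 and ZFAS1 were left aside. This gave 117 lncRNA genes of 12486 genes in the table, beside 12160 protein-coding genes, 85 pseudogenes and 123 numbers with no match in RefSeq. SNHG32 was the 1 gene left aside. K562 cells stably expressed either a control shRNA (sh-luc, 3 libraries) or an shRNA against lncRNA-IUR1 (sh-IUR1, called sh-up91 in the labels, 3 libraries), so that both groups carried an shRNA, and the labels name no other treatment. In each group 1 library has no number and the others are replicates 1 and 2. The study describes 3 independent groups of cells. No time point or clone is given. The gene that the shRNA targets has no row in the table, so the knockdown could not be checked here.

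A long noncoding RNA is a transcript above a set minimum length that codes for no known protein, or for a micropeptide at most. Many such genes start beside a coding gene and run away from it (divergent, -DT), run across it on the opposite strand (antisense, -AS or OS), stand apart from coding genes (intergenic, LINC), or carry a microRNA in their transcript (MIR-HG). Many are less abundant than mRNAs, and some act in the nucleus at the gene they come from. For many of these genes no function has been described, and the locus carries only a LOC number.

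The erythroid genes that mark K562 were high in the 6 libraries, with GATA1 at a mean of 193.5 FPKM and HBG2 at 2915, while the T-cell gene CD3E was at 0.08 and PTPRC at 0.29. The liver gene ALB and the keratin KRT5 had no row. FPKM counts fragments and divides them by transcript length and library size, so levels of different genes can be set side by side. Every gene in the table had an SD of FPKM of at least 0.05 over the libraries, and 17 of 117 lncRNA genes (14.5%) had an SD under 0.07 against 4.14% of coding genes. The unnumbered sh-luc library stood apart from the other 5: it took the far end of the first principal component of log2(FPKM + 1), which held 58.9% of the variance over all genes and 49.0% over the lncRNA genes. It was the lowest library for 48 of 117 lncRNA genes (41.0%) and for 37.0% of coding genes. The opposite end of that component was taken by sh-IUR1 replicate 1. That library was the highest for 32 of 117 lncRNA genes (27.4%) and for 25.8% of coding genes.

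The table held few of the lncRNA genes that RefSeq lists. It contained 118 of 18330 lncRNA genes (0.644%), SNHG32 included, and 12160 of 20056 coding genes (60.6%). Of 42 well-known lncRNA genes on the lists compiled for this work (nuclear-retained, leukemia, microRNA host, hypoxia and others) and found in RefSeq, CRNDE was the 1 with a row. The members carried other kinds of names. LOC numbers were borne by 61, an -AS suffix by 17, a -DT suffix by 10, a LINC number by 8, an OS suffix by 3 and a microRNA host name by 3, and 15 had other names. An open-reading-frame name such as C18orf56 (now TYMSOS) stood in the RefSeq record of 19 of 117 (16.2%), as the former name of 16 and the present symbol of 3, against 346 of 18212 lncRNA genes outside the table (1.90%). The median level of those 19 was 0.675 FPKM and that of the other 98 was 0.437 FPKM. GENCODE release 44 had a gene of the same symbol and place for 46 of the 117, typed lncRNA for 44 and protein-coding for 0.

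Sequence sets the first limit on the values. The second highest member, LOC102724843 (chr21:7048859-7087230, GRCh38), is 1 of 4 listed members on the short arm of chromosome 21 that are near copies of each other. LINC03105 (chr21:7430668-7469008) matched it at all of 38341 bases. LINC03104 (chr21:5553637-5592004) matched at 38368 bases and lacked 4 bases of a repeat. LOC102723360 (chr21:7669397-7692201), which lies in the opposite orientation, matched at 22804 of 22805 bases. The windows that follow hold every difference of these genes from LOC102724843 that the alignment found, with the differing bases in capitals, on the strand of LOC102724843. In the first pair the 4 bases begin at position 29241 of LOC102724843, and in the second the substitution is G26755T, counted from 1 at the start of LOC102724843.
LOC102724843 (chr21:7078069-7078132): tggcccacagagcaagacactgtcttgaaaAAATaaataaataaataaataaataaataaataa
LINC03104 (chr21:5582847-5582906): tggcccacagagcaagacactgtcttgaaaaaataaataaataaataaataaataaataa
LOC102724843 (chr21:7075583-7075643): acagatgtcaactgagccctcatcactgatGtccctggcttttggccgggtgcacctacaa
LOC102723360 (chr21:7680984-7681044, minus strand): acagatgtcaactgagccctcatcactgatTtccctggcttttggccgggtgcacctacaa

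The genome of this build held 6 stretches of at least 10000 bases with 99% or more identity to LOC102724843 on chromosome 21, itself included, and 4 of them carried a listed member. Reads from these copies cannot be told apart over nearly the whole span, and how the authors assigned them is not given in the sources used here. LOC102724843 was at 47.79, 38.16 and 36.6 FPKM in the unnumbered, first and second sh-luc libraries and at 34.72, 32.97 and 37.42 FPKM in the sh-IUR1 libraries in the same order. The identical LINC03105 was at 5.57, 3.49 and 4.01 FPKM in sh-luc and at 3.82, 2.39 and 4.8 FPKM in sh-IUR1. LOC102724843 was thus 7.80 to 13.8 times as high as LINC03105, depending on the library, although the genomic sequence of LINC03105 is contained in it. LINC03104 was at 2.75, 3.46 and 3.29 FPKM in sh-luc and at 4.15, 3.65 and 3.16 FPKM in sh-IUR1. LOC102723360 was at 2.57, 1.31 and 0 FPKM in sh-luc and at 1.01, 1.59 and 2.88 FPKM in sh-IUR1, and its SD on the log2 scale was the largest of the 38 members at 1 FPKM or more. The groups of all 4 copies overlapped. The share of LOC102724843 in the summed FPKM of the copies lay between 77.5% and 83.4%. That sum was 49.7 ± 7.91 FPKM in sh-luc and 44.2 ± 3.85 FPKM in sh-IUR1 (SD, n = 3 each), with the highest value, 58.7, in the unnumbered sh-luc library. The values of the single copies are uncertain for this reason. Chromosome 21 held 8 of the 117 members (6.84%), the 4 copies among them, and 1.01% of the coding genes.

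The highest member, LOC107986794, was also part of a repeated family. Its span on chr7:51392378-51393256 aligned over 300 bases or more, at 90% identity or more, to transcripts of 17 other GENCODE genes on 9 chromosomes, with a closest match of 97.5% over 356 bases. LOC100996720 (chr1:120913341-120914114) matched 4 other genes in this way, the closest at 99.4% over 773 of its 774 bases. TYMSOS matched 1 other gene, at 90.4% over 302 bases, and CRNDE and MPDU1-AS1 matched none. No other member was searched in this way. The values of LOC100996720 are therefore uncertain in a similar sense to those of the chromosome 21 copies. For LOC107986794, of 879 bases, 16 of the 17 genes matched at 95% identity or more. The 356 bases are only the segment of highest identity, and the whole shared length was not measured. How far its values are affected is therefore not known.

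Levels were low. The median of the mean FPKM was 0.478 over the 117 members and 10.7 over the coding genes. Within libraries the coding median was 18.3 to 26.2 times the lncRNA median, with a mean of 21.6 ± 2.69 (SD, n = 6), 22.8 ± 3.12 in sh-luc and 20.4 ± 2.02 in sh-IUR1 (SD, n = 3 each). The highest of these ratios, 26.2, was that of the unnumbered sh-luc library, in which the lncRNA median was 0.39 FPKM against 0.48 to 0.58 in the other 5 libraries. The groups overlapped. Over genes that averaged 1 FPKM or more, the ratio was 4.82. A mean under 1 FPKM was found for 79 members, of which 7 lay under 0.1 FPKM, and 30 lay between 1 and 10 FPKM and 8 at 10 FPKM or more. Of the coding genes, 51.6% were at 10 FPKM or more, against 6.84% of the lncRNA genes. The coding median was exceeded by 7 members. In 12 members at least 1 library was listed at 0, and LINC01638 and TMEM51-AS2 were above 0 in 1 library each. The 10 highest genes held 66.9% of the summed FPKM of all members, and the members as a whole held 0.0484% ± 0.00342 of the summed FPKM of the table in sh-luc and 0.0514% ± 0.00215 in sh-IUR1 (SD, n = 3 each). SNHG32, the lncRNA gene left aside, is not part of these values. Its mean was 754.5 FPKM, against 52.8 FPKM for the highest member.

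**Figure D1:**
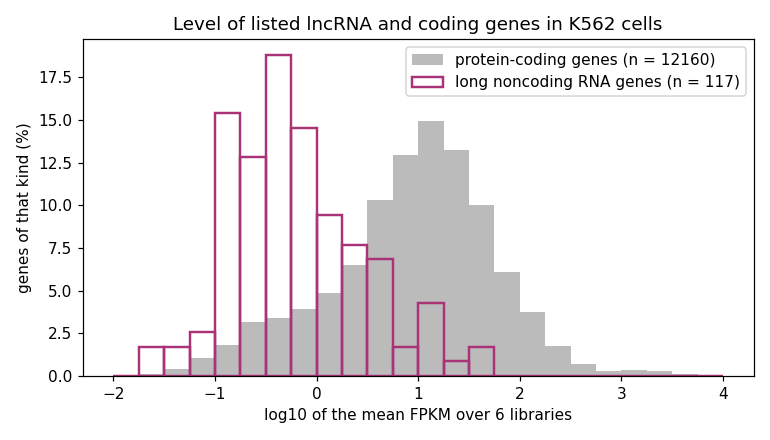
Share of genes (y axis, percent of that kind) in each band of the log10 of the mean FPKM over the 6 libraries (x axis), for 117 lncRNA genes (outlined) and 12160 coding genes (grey). The lncRNA genes center on a median of 0.478 FPKM and the coding genes on 10.7 FPKM.

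The spread between libraries of a group was larger for lncRNA genes than for coding genes of the same band of levels. Among genes with a mean of 1 to 10 FPKM, the median SD within groups of log2(FPKM + 1) was 0.166 over 30 lncRNA genes and 0.110 over 4205 coding genes, a ratio of 1.51. At 10 FPKM or more it was 0.158 over 8 lncRNA genes and 0.0889 over 6277 coding genes, a ratio of 1.78. These values are descriptions without a test, and within the first band the median level was 1.99 FPKM for lncRNA genes and 4.53 FPKM for coding genes. Within the second band it was 14.7 and 28.4 FPKM. The 8 lncRNA genes of that band include LOC107986794, LOC102724843 and LOC100996720, which share sequence with other genes.

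The 10 highest members ranged from LOC107986794 at 52.8 FPKM to LINC03124 at 6.71 FPKM. LOC107986794 was at 43.09, 57.14 and 47.39 FPKM in sh-luc and at 52, 62.96 and 54.5 FPKM in sh-IUR1. The groups overlapped, and the lowest value was again that of the unnumbered sh-luc library. Its log2 fold change was 0.20 (SE 0.11, adjusted p = 0.930, limma). LOC102724843, whose values are given above, had a log2 fold change of -0.21 (SE 0.099, adjusted p = 0.930, limma). Without the unnumbered sh-luc library these fold changes were 0.11 and -0.09, and that of LOC107986794 was 0.12 without sh-IUR1 replicate 1 and 0.31 without sh-luc replicate 1.

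TYMSOS, a transcript from the opposite strand at the gene of thymidylate synthase, the enzyme that makes dTMP for DNA synthesis, was the third highest. It was at 28.98, 30.89 and 24.92 FPKM in sh-luc and at 26.69, 28.93 and 24.78 FPKM in sh-IUR1, with overlapping groups. Its start lies 638 bases from that of TYMS on chromosome 18, and TYMS was at a mean of 282.7 FPKM, 10.3 times as high. CRNDE, named for its level in colorectal neoplasia, was at 16.9, 14.86 and 13.23 FPKM in sh-luc and at 15.51, 16.24 and 14.82 FPKM in sh-IUR1, and its groups overlapped too. Its log2 fold change was 0.05 with a 95% interval of -0.15 to 0.26.

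NFE4 is typed lncRNA in RefSeq, but its name comes from a protein, NF-E4, described as part of a fetal globin activator. It was at 10.58, 15.51 and 14.98 FPKM in sh-luc and at 14.52, 17.21 and 12.52 FPKM in sh-IUR1. It lies antisense to FBXL13, which was at 4.77 FPKM. KRT10-AS1, formerly TMEM99, runs across the keratin gene KRT10 and was at a mean of 12.9 FPKM, with KRT10 at 14.2. ANKRD13C-DT, formerly HHLA3, was at 12.1 FPKM, MPDU1-AS1 at 7.15 FPKM and LOC100996720 at 10.2 FPKM. LINC03124, formerly C2orf27, varied least of these, from 6.22 to 7 FPKM. The groups of each of the 10 overlapped.

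**Figure D2:**
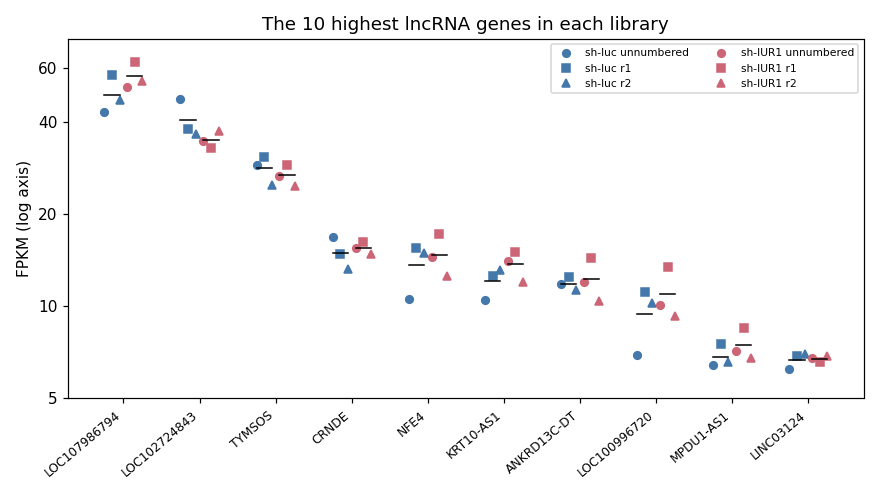
FPKM (log axis) of the 10 highest members in each library, points and lines as in the plot of the chromosome 21 copies. The sh-luc and sh-IUR1 points overlap for each gene, and the unnumbered sh-luc library is the lowest of the 6 for LOC107986794, NFE4, KRT10-AS1, LOC100996720, MPDU1-AS1 and LINC03124.

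Position beside coding genes was examined next, with the RefSeq spans and the strand given by RefSeq for 82 members and by GENCODE for 9. A start within 1000 bases of the start of a coding gene on the opposite strand, here called head to head, was found for 32 members. A further 24 overlapped a coding gene on the opposite strand, 4 on the same strand and 11 with the strand not given, 43 overlapped none, and 3 have no position on a chromosome. The median level was 0.459 FPKM for the head-to-head members, 0.416 FPKM for the antisense ones and 0.448 FPKM for those that overlapped no coding gene. The coding partner had a row for 65 members. It was higher than the lncRNA gene in 61 of these 65 pairs, by a median of 24.2 times, and by a median of 14.7 times in the 31 head-to-head pairs. The exceptions were ANKRD13C-DT, NFE4, ATP8B1-AS1 and ST20, whose partners stood at 0.351, 0.335, 0.448 and 0.0692 times their level, and ST20 overlaps its partner, the readthrough gene ST20-MTHFS, on the same strand. Over the whole table the coding median was 21.6 times the lncRNA median. The median ratio of 24.2 is therefore not read as particular to neighbouring genes. The use of strand in counting is not given in the sources used here, so reads of overlapping genes on opposite strands may not have been kept apart. Spearman's rho between the levels of member and partner was 0.11 over the 65 pairs and 0.20 over the 31 head-to-head pairs, as a description over genes measured in the same libraries.

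For 3 head-to-head pairs the DNA that both genes start from is shown, to set sequence beside level. The bases come from the RefSeq promoter windows of GRCh38.p14, and the capitals mark the stretch from the start of the coding gene to that of the lncRNA gene, with 20 bases on either side in lower case.
ANKRD13C-DT (chr1:70354702-70354831, plus strand): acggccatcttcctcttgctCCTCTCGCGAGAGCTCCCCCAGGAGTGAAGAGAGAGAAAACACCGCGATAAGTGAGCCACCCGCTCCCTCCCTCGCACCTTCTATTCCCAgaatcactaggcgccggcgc
SBNO1-AS1 (chr12:123364827-123364968, plus strand): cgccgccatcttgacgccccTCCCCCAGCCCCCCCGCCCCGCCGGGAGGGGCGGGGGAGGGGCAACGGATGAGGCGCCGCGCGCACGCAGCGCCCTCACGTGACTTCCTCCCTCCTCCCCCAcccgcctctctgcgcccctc
GNB1-DT (chr1:1891067-1891200, plus strand): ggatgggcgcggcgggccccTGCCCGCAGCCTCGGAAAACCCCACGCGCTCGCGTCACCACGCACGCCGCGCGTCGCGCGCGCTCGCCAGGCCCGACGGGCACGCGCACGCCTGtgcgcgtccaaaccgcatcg

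The distance between starts was 89, 101 and 93 bases. The windows from 250 bases before to 50 bases after the start of the lncRNA gene were 64.0%, 74.7% and 80.0% G and C and held 28, 32 and 58 CG dinucleotides. From these similar distances the levels differed widely. ANKRD13C-DT was at 11.81, 12.45 and 11.28 FPKM in sh-luc and at 12.05, 14.34 and 10.44 FPKM in sh-IUR1, while ANKRD13C, an ankyrin repeat protein gene, was at a mean of 4.23 FPKM. SBNO1-AS1 was at a mean of 1.21 FPKM and SBNO1, a gene of the strawberry notch family, at 9.18 FPKM, which is 7.59 times as high. GNB1-DT was at 0.433 FPKM and GNB1, the gene of a G protein beta subunit, at 101.3 FPKM, or 233.7 times as high. The largest ratio among head-to-head pairs was 983, between KPNB1, the gene of the import receptor importin beta, and KPNB1-DT. KPNB1 was at a mean of 172.0 FPKM and KPNB1-DT at only 0.175 FPKM, so this ratio rests on a value near 0.

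**Figure D3:**
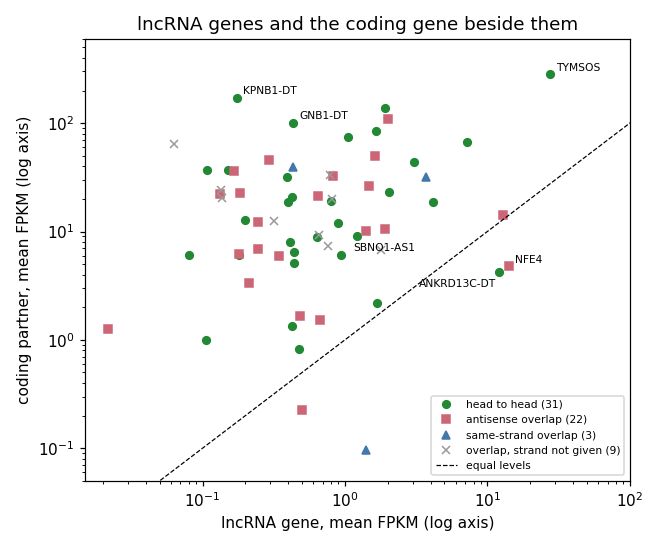
Mean FPKM of 65 lncRNA genes (x axis, log) against that of their coding partner (y axis, log), by position, with a dashed line of equal levels. The partner is above the line in 61 pairs, and ANKRD13C-DT and NFE4 are the highest lncRNA genes below it.

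The promoters of the listed lncRNA genes were richer in CG dinucleotides than those of lncRNA genes with no row. The median observed over expected CG ratio in the window of 300 bases was 0.710 over 82 members, 0.841 over 10005 coding genes of the table and 0.282 over 11379 RefSeq lncRNA genes with no row. Over all 27305 windows this ratio was 0.580. Within the members it was 0.879 over the 31 head-to-head genes with a window and 0.512 over the other 51. The members that are not head to head thus lay under the value of all windows. The TATA motif TATAAA, searched on both strands, was in 4 of 82 windows (4.88%), in 6.12% of coding windows, in 15.2% of the windows of lncRNA genes with no row and in 12.0% of all 27305 windows. AGATAA, a form of the site bound by GATA factors, the family of the erythroid factor GATA1, was in 7 of 82 windows (8.54%), in 4.97% of coding windows, in 14.6% of the windows of lncRNA genes with no row and in 10.5% of all windows. It was in none of the 31 head-to-head windows. These are counts of letters in a window and were compared without a test.

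In all, 5 members span a microRNA gene. A microRNA is cut from a longer transcript and finds its targets mainly through bases 2 to 8, its seed, so the host level is not the level of the microRNA, which was not measured. Mature sequences from RefSeq are shown for the MIR-HG genes with an entry, because they are the product for which these lncRNA genes are named, with the seed in capitals.
hsa-miR-1915-3p: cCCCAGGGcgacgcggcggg
hsa-miR-1915-5p: aCCUUGCCuugcugcccgggcc
hsa-miR-9-5p: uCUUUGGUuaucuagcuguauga
hsa-miR-9-3p: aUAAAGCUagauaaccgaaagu

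No seed was shared among these 4. MIR1915HG was at 1.85, 1.98 and 1.83 FPKM in sh-luc and at 2.32, 2.1 and 1.74 FPKM in sh-IUR1, and the groups overlapped. MIR9-1HG, the host of a microRNA best known from neural tissue, was at 0.74, 0.47 and 0.83 FPKM in sh-luc and at 0.45, 0.53 and 0.72 FPKM in sh-IUR1, with overlap as well. MIR3667HG was at 0.39 to 0.58 FPKM over the libraries. LOC105371763, which spans MIR4734, was the highest of the 5 with a mean of 4.74 FPKM, and LOC105379547, which spans MIR3177, was at 0.658 FPKM.

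The comparison of sh-IUR1 with sh-luc asked which of these genes change when lncRNA-IUR1 is knocked down. The 12276 genes whose mean reached 0.1 FPKM entered a limma fit of log2(FPKM + 1), among them 110 of the 117 members. No lncRNA gene passed an adjusted p of 0.05, nor did any other gene tested (background 0%), and the smallest adjusted p among members was 0.930. At an unadjusted p under 0.05 there were 4 members higher in sh-IUR1, against a background of 1.65% of all genes, and 2 lower, against 0.994%. This is 3.64% and 1.82% of the 110 members. Under quantile normalization the balance turned to 1 higher and 3 lower, and over all genes from 203 higher and 122 lower to 134 and 177. The groups did not overlap for 6 members that were higher (5.45%, background 4.04%) and for 2 that were lower (1.82%, background 3.03%). With counts this small, nothing particular to the lncRNA genes is read from these shares.

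The median log2 fold change was 0.06 over the 110 members and 0.02 over all genes tested, and 71 members (64.5%) were above 0, against 58% of all genes. The quartiles of the members were -0.03 and 0.12. Without the unnumbered sh-luc library the median of the members was 0.02 with 56.4% above 0, and that of all genes was 0.0047 with 52.7% above 0. Without sh-IUR1 replicate 1 the median was 0.03 with 64.5% above 0 for the members, and 0.0183 with 59.3% for all genes. Quantile normalization gave 0.03 and 57.3% for the members and -0.0021 and 49.0% for all genes. The members' median was 0.11 with a pseudocount of 0.1 FPKM, and 0.10 over the 38 that averaged 1 FPKM or more, of which 29 (76.3%) lay above 0 against 57.2% of all genes at that minimum. Since the RNA of whole cultures was measured, fewer cells with an RNA and less RNA per cell cannot be told apart.

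LOC105372824, on chromosome 21 within the span of the pyridoxal kinase gene PDXK, had the smallest unadjusted p. It was at 0.26, 0.82 and 0.68 FPKM in sh-luc and at 1.03, 1.05 and 1.04 FPKM in sh-IUR1. The groups did not overlap, and the value of the unnumbered sh-luc library lay furthest from the other 5. The log2 fold change was 0.38 (SE 0.12, adjusted p = 0.930, limma). MALT1-AS1, head to head with the paracaspase gene MALT1, was at 0.08, 0.41 and 0.44 FPKM in sh-luc and at 0.59, 0.63 and 0.48 FPKM in sh-IUR1. Its groups did not overlap either, with a log2 fold change of 0.27 (SE 0.11).

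SBNO1-AS1, shown above with its promoter, went the other way. It was at 1.54, 1.53 and 1.33 FPKM in sh-luc and at 1, 1.27 and 0.59 FPKM in sh-IUR1. All 3 sh-luc values were above the sh-IUR1 values, and the log2 fold change of -0.35 (SE 0.12, adjusted p = 0.930, limma) was the lowest of all members. Its partner SBNO1 had a log2 fold change of -0.05. ARIH2OS, at the start of the ubiquitin ligase gene ARIH2, was at 1.93, 3.03 and 2.86 FPKM in sh-luc and at 3.76, 3.74 and 2.92 FPKM in sh-IUR1, and the groups overlapped. LOC107985433 and LOC112268219 completed the 6 genes, with log2 fold changes of 0.29 and -0.22 and with groups that overlapped. Without the unnumbered sh-luc library the log2 fold change of LOC105372824 was 0.22, that of MALT1-AS1 0.14, that of ARIH2OS 0.18 and that of LOC107985433 0.17, and of the 6 genes only LOC105372824 and SBNO1-AS1 then stayed under an unadjusted p of 0.05. Without sh-IUR1 replicate 2 the log2 fold change of SBNO1-AS1 was -0.21 and no longer under that threshold.

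Among members of at least 1 FPKM, LINC02693 and LOC107987142 also had groups without overlap. LINC02693, formerly C17orf51, was at 3.02, 3.41 and 3.57 FPKM in sh-luc and at 3.7, 3.84 and 4.04 FPKM in sh-IUR1, a log2 fold change of 0.17 (SE 0.084). LOC107987142 was at 1.24, 1.46 and 1.45 FPKM in sh-luc and at 1.59, 1.56 and 1.56 FPKM in sh-IUR1, a log2 fold change of 0.11 (SE 0.078). The other 3 members without overlap had a mean of 0.307 FPKM or less, and LOC107985524 and BALR6 were higher in sh-IUR1 and LOC105376526 was lower. BALR6 is a transcript named for B-cell acute lymphoblastic leukemia, and it was at 0.17, 0.19 and 0.17 FPKM in sh-luc and at 0.26, 0.37 and 0.29 FPKM in sh-IUR1.

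The most variable members of at least 1 FPKM over the 6 libraries were LOC102723360, LINC03105, LOC100996720, LOC107983998 and SBNO1-AS1. The first 3 of these are among the genes with near-identical copies. LOC107983998, which overlaps ZNF581 on the same strand, was at 2.17, 3.84 and 3.6 FPKM in sh-luc and at 4.61, 4.1 and 3.83 FPKM in sh-IUR1. The groups overlapped, the lowest sh-IUR1 value lying just under the highest sh-luc value, and the log2 fold change was 0.32 (SE 0.15) with all libraries and 0.13 without the unnumbered sh-luc library.

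By position, the median log2 fold change was 0.07 over 31 head-to-head members, 0.01 over 22 antisense members and 0.08 over 40 members that overlapped no coding gene, and unadjusted p under 0.05 was found for 3, 1 and 1 of them, against 2.65% of all genes. It was 0.17 over the 4 same-strand members and -0.08 over the 3 with no chromosome position, none of which lay above 0. By name it was 0.07 over 57 LOC genes, 0.07 over 15 -AS genes, 0.03 over 10 -DT genes, 0.07 over 7 LINC genes and -0.07 over the 3 OS genes. These differences between groups of members were not tested. Of the coding partners in 61 pairs with both genes tested, 0 passed the adjusted threshold, and their log2 fold changes ran from -0.24 for KRT10 to 0.17 for LIPT2.

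**Figure D4:**
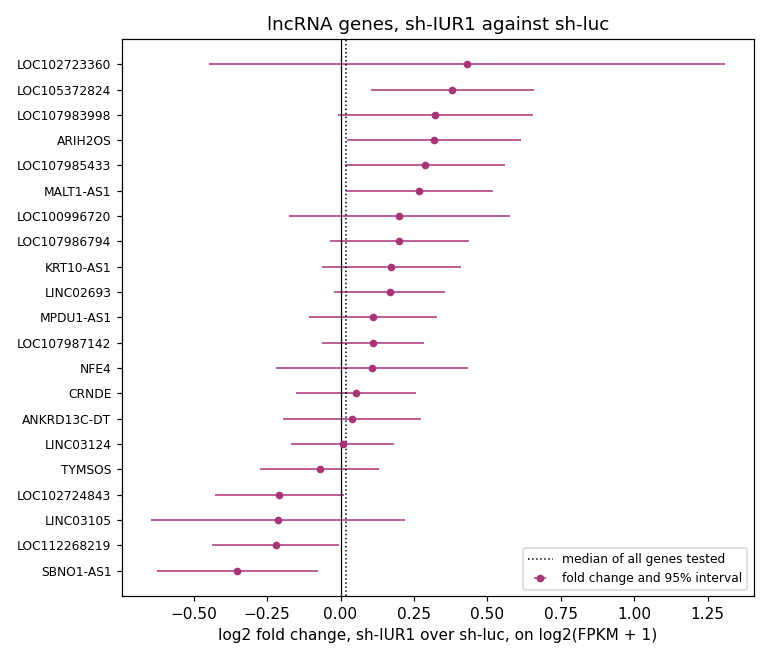
Log2 fold change of sh-IUR1 over sh-luc on log2(FPKM + 1) with its 95% interval for the named lncRNA genes and the 6 with an unadjusted p under 0.05. The intervals of those 6 lie to 1 side of 0 and the other 15 span 0, and the estimates run from -0.35 for SBNO1-AS1 to 0.43 for LOC102723360.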

How the data were processed

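Total RNA of K562 cells from 3 sh-luc and 3 sh-IUR1 libraries was sequenced. Reads were trimmed, masked for low-quality and low-complexity sequence and mapped to hg38 by the authors, who used samtools (SAMtools 0.1.19 in the submitters' processing notes). The deposited FPKM values carry 2 decimals. The aligner, the annotation and the use of strand are not given in the sources used here. The deposited table also holds a score (the FPKM standardised per gene by the authors), a cluster number and a fraction (cluster membership), which were not used. Every gene with a row had an SD of at least 0.05 FPKM, the smallest being 0.0501. This limit was read from the values. No counts were used here, so the depth behind a value is unknown, and an exact 0 is reported as listed at 0.

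Gene numbers were joined to RefSeq (GRCh38.p14), with 12363 of 12486 matched. Groups were compared with limma 3.58.1 (R 4.3.3) on log2(FPKM + 1), with an intensity trend, for genes averaging 0.1 FPKM or more, with Benjamini-Hochberg adjustment across every gene tested. Fold changes on this scale understate those of low genes. With 3 against 3 libraries an exact permutation test of 1 gene cannot go below 0.1, so none was run. Copies were aligned with minimap2 2.31 and blastn 2.17.0. Named genes were those on the compiled lists, the 10 highest, up to 5 in each direction with the smallest p among members of at least 1 FPKM whose groups did not overlap, and the 5 most variable of at least 1 FPKM; other genes named were chosen after their values were seen. The members and lists were chosen with earlier results of these data known.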

Additional observations from a re-analysis of the deposited data

How the results depend on the processing

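The count of lncRNA genes past an adjusted p of 0.05 was 0 in limma under each of 14 alternatives. The count at an unadjusted p under 0.05 was 6 as reported (5.45%, against 2.65% of all genes). With a minimum mean of 1 FPKM, which left 38 members, it was 3 (7.89%, against 2.26% of all genes). It was 2 among the 30 tested members whose span overlaps no other RefSeq gene (added after seeing the data), and 4 to 12 without single libraries. It was 11 (10%) without sh-luc replicate 1 and 12 (10.9%) without sh-IUR1 replicate 2, where all genes stood at 6.97% and 5.79% in place of 2.65%. With the replicate block it was 11, 8 higher and 3 lower, and over all genes 533 in place of 325. Whether the shared numbers pair the libraries is not settled here. Deviations of same-numbered libraries from their group means correlated at 0.04, 0.39 and -0.34, and libraries of different numbers were not compared in this way. The count of genes whose groups do not overlap was 8 as reported and 2 among the members clear of other spans. With the minimum of 1 FPKM it was 3 (7.89%, against 6.68% of all genes). It was 11 to 27 without single libraries, where fewer values make overlap rarer. There 27 of 110 (24.5%) stood beside 25.2% of all genes and 11 (10%) beside 14.2%, against 7.27% and 7.07% with all libraries. The median log2 fold change, 0.06, ran from 0.02 to 0.07 without single libraries and was 0.11 with a pseudocount of 0.1 FPKM and 0.10 with the minimum of 1 FPKM. The coding over lncRNA median, 21.6, was 4.82 among genes of at least 1 FPKM, 12.6 for members clear of other spans and 20.7 to 22.3 without single libraries. The spread ratio, 1.51, was 1.61 with a pseudocount of 0.1 FPKM, 1.78 at 10 FPKM or more, and 1.25 to 1.52 without single libraries. Of 208 refitted fold changes of named genes, 10 changed sign and none passed the adjusted threshold. LINC03124 changed sign under median-ratio scaling (-0.0105) and quantile normalization (-0.0255), and ran from -0.0379 to 0.0361 without single libraries. Without single libraries the other 5 genes ran from -0.0552 to 0.212 (NFE4), -0.0291 to 0.136 (CRNDE), -0.0713 to 0.140 (ANKRD13C-DT), -0.387 to 7.0e-05 (LINC03105) and -0.0765 to 0.841 (LOC102723360). The cause of these shifts was not tested. The alternative that keeps lncRNA genes sharing no exonic base with another gene was not run, because no exon models matching the table's RefSeq genes were used here.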
